A study of Danio rerio with 2 samples.

Results

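The sparse region of the long arm of zebrafish chromosome 4 comprised 652 of the 238369 open chromatin regions (peaks) measured by ATAC-seq in precursors of the retinal pigment epithelium (RPE). Its members were all peaks of the danRer10 genome that start on chromosome 4 from 30 Mb to under 70 Mb, a stretch that was selected on its measured number of peaks per Mb, which had been seen to be low. The number of peaks and the distances between them are therefore given as a description, without a test. The peaks before it (first 30 Mb, 6198 peaks) and after it (chromosome end, 583 peaks over 6.62 Mb) served for comparison, with the 226382 peaks of the other 24 numbered chromosomes as a wider reference.

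In ATAC-seq the Tn5 transposase cuts and tags DNA where chromatin is open, so that the number of reads in a peak reflects how accessible that site is in the cells sampled. The data comprised 2 libraries of 1 group, RPE replicate 1 and RPE replicate 2, made at 23 hours post fertilization (hpf) from GFP-positive cells that were isolated by flow cytometry from embryos of the genotype tg(Enh-1_bHLHe40:GFP). Both libraries carry the same transgene, whose enhancer marks the RPE, and each derives from a pool of embryos, described by the study as a biological replicate. Libraries of the neural retina, the tissue with which the study compares the RPE, were not analysed here, and no comparison between cell types or conditions was made. Total counts in peaks were 23996755 in replicate 1 and 19653966 in replicate 2, and counts were scaled to a total of 1000000 per library, giving CPM.

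The long arm of zebrafish chromosome 4 is known to be largely heterochromatic. It replicates late, is rich in satellite and other repeats, carries arrays of small nuclear RNA genes and tandem families of zinc finger and NOD-like receptor genes, and holds the sex-linked region of wild strains. The RPE is the pigmented layer that forms around the neural retina as the optic cup folds. Peaks are given by position only, since no gene annotation or sequence of danRer10 was used here, and neither the genes near a peak nor the defining markers of the RPE were analysed.

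Peaks of the sparse region were narrow, far apart and weakly accessible. The median width was 200 bp, against 265 bp in the first 30 Mb, 239 bp at the chromosome end and 262 bp on the other chromosomes. The median peak had 0.917 CPM in replicate 1 and 1.12 CPM in replicate 2 (1.02 ± 0.143, SD, n = 2), which was 2.07-fold below the first 30 Mb. The 40 Mb together held 0.0940% of the counts of replicate 1 (exact 95% interval, counting error only, 0.0927 to 0.0952%) and 0.119% of those of replicate 2 (0.117 to 0.120%). The intervals of the libraries do not overlap, and the larger share was that of replicate 2.

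Width was shifted at the quartiles but not at the maximum. The widest member had 2268 bp, against 1504 bp in the first 30 Mb, 1271 bp at the chromosome end and 2929 bp on the other chromosomes. The quartiles were 114 and 254 bp in the sparse region and 169 and 372 bp in the first 30 Mb. Peaks at the smallest width in the list, 100 bp, made up 72 of the 652 members (11%), against 5.81% in the first 30 Mb, 6.17% at the chromosome end and 6.04% on the other chromosomes. At the other end, 78 members (12%) were wider than 300 bp, against 39.8%, 31.7% and 40.4%. The narrow classes were thus more common and the wide classes less common than in any of the comparison sets. All members together covered 140.5 kb, or 0.351% of the 40 Mb, against 6.08% of the first 30 Mb and 2.38% of the chromosome end.

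**Figure D1:**
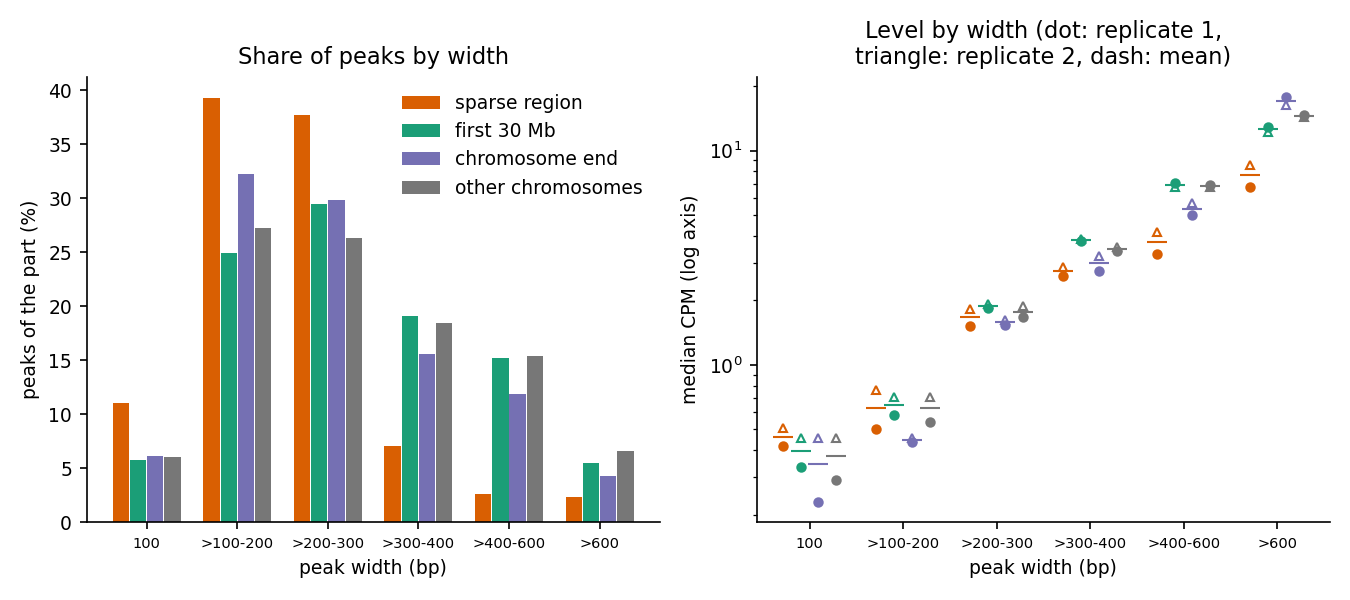
Left, bars give the share of the peaks of each set (%) in 6 classes of peak width (bp). Right, the median CPM of the same classes on a log axis, with dots for replicate 1, open triangles for replicate 2 and dashes for their mean. Of the sparse region's peaks 12% were wider than 300 bp, and in the classes above that width both of its libraries lay under both of the first 30 Mb.

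The lower level held in both libraries. Medians in the first 30 Mb were 2.04 and 2.14 CPM for replicates 1 and 2 (2.09 ± 0.0672), at the chromosome end 1.25 and 1.42 CPM (1.34 ± 0.123), and on the other chromosomes 1.79 and 1.98 CPM (1.89 ± 0.136). No library of the sparse region reached the lower library of any of these sets. The log2 difference to the first 30 Mb was −1.16 in replicate 1 and −0.93 in replicate 2 (−1.04 ± 0.157), and that to the chromosome end was −0.45 and −0.35. Peaks of one region share their libraries and are not replicates, so no p-value was computed over them, and the differences are set against the spread between the libraries alone.

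Per kb of peak width the distance shrank. The median was 5.17 and 6.47 CPM per kb in replicates 1 and 2 (5.82 ± 0.919), against 7.62 and 8.11 CPM per kb in the first 30 Mb (7.86 ± 0.344). The libraries of these sets again do not overlap, and the log2 difference was −0.56 and −0.32 (−0.44 ± 0.165). Against the chromosome end, with 5.48 and 6.44 CPM per kb, the difference was −0.08 in replicate 1 and 0.01 in replicate 2, so the order of these sets per kb was not the same in both libraries.

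Within classes of equal width, the difference to the first 30 Mb depended on the width. At 100 bp the 72 members had a median of 0.463 ± 0.0651 CPM, against 0.396 ± 0.0881 CPM for peaks of that width in the first 30 Mb. The 256 members over 100 to 200 bp had 0.632 ± 0.186 CPM against 0.648 ± 0.0912 CPM. Within libraries the log2 difference was 0.32 in replicate 1 and 0.15 in replicate 2 at 100 bp, where the sparse region was the higher, and −0.22 and 0.10 in the next class, where the libraries disagreed on the sign. For the 246 members over 200 to 300 bp the first 30 Mb was 1.12-fold higher (1.68 ± 0.220 against 1.88 ± 0.0706 CPM), with log2 differences of −0.27 and −0.08. The gap was wider above 300 bp, where the first 30 Mb was 1.40-fold higher for the 46 members up to 400 bp, 1.86-fold for the 17 members up to 600 bp and 1.64-fold for the 15 members beyond. In these 3 wide classes the log2 difference was negative in each library, from −1.11 to −0.43.

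The width classes allow the difference in level to be split arithmetically. On the log2(CPM + 0.1) scale, averaging the class medians with the widths that each set has, the sparse region lay 1.0 below the first 30 Mb in replicate 1 and 0.75 below it in replicate 2. Of this, −0.78 and −0.71 came from the different mix of widths, a share of 86.1% ± 12.4 over the libraries. What remained within width classes was −0.23 in replicate 1 and −0.04 in replicate 2 (−0.13 ± 0.134), a difference no larger than its SD. This remainder, like those below, was weighted by the sparse region's own mix of widths. Peaks over 300 bp, where the first 30 Mb was the higher in both libraries, were 12% of the sparse region but 39.8% of the first 30 Mb. A weighting by the widths of the first 30 Mb was not computed, so the split holds for this weighting only. Against the other chromosomes the remainder was −0.12 and −0.02. Against the chromosome end it was 0.08 and 0.28, with the sparse region the higher in both libraries in the classes up to 200 bp. In each class above 300 bp the sparse region was the lower in both libraries, most so over 600 bp, at 7.65 ± 1.27 CPM against 17.0 ± 1.08 CPM for 25 peaks at the end.

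A split of sums and means that takes CPM as proportional to width gave width a smaller share than the split by width class. The methods differ in more than medians and means, so these shares are not directly comparable. Summed over peaks, the sparse region had 23.5 and 29.6 CPM per Mb in replicates 1 and 2, against 846 and 821 CPM per Mb in the first 30 Mb, a ratio of 36.0 in replicate 1 and 27.7 in replicate 2. This ratio is the product of 12.7-fold more peaks per Mb, a 1.36-fold larger mean width, and 2.08-fold (replicate 1) or 1.60-fold (replicate 2) more counts per kb of peak. The number of peaks, which chose the region, was therefore its largest term. Of the log ratio of mean CPM per peak (1.63 ± 0.267 against 4.04 ± 0.0847 CPM) the mean width made up 34.8% ± 7.05. Peak widths may rest in part on the reads counted here, since the libraries from which the common list was called are not given in the sources used here, so neither share treats width as an independent property of the site.

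Low counts bear on all of these values. The median summed count of both libraries was 42.5 per member, against 92 in the first 30 Mb and 82 on the other chromosomes. At least 10 counts in both libraries were found for 458 members (70.2%), against 84.0% in the first 30 Mb and 71.0% at the chromosome end, and 57 members (8.74%) had fewer than 10 in both. Within classes of summed count the difference in width to the first 30 Mb depended on the count. Members with 1 to 19 counts had a median width of 106 bp, the same as in the first 30 Mb, those with 40 to 79 counts 215.5 against 229 bp, and those with at least 160 counts 320.5 against 415 bp. The difference in width was thus small among weak peaks and larger among strong ones. The class of at least 160 counts has no upper limit, so it does not hold the count equal between the sets.

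Spacing was uneven rather than wide throughout. The distance from the end of a peak to the start of the next had a median of 19 kb, with quartiles of 1.69 and 77.0 kb, against medians of 2.54 kb in the first 30 Mb, 4.91 kb at the chromosome end and 3.04 kb on the other chromosomes. Yet 142 distances (21.8%) were at most 1 kb, a share close to the 24.8% of the first 30 Mb and the 24.1% of the other chromosomes. At the far end, 128 distances (19.7%) exceeded 100 kb, against 0 in the first 30 Mb, 7 (1.20%) at the chromosome end and 149 (0.0658%) on the other chromosomes. At intermediate distances members were fewer, with the nearest peak at 1 to 5 kb for 17.8% of them, against 47.1% in the first 30 Mb and 44.8% on the other chromosomes. Neighbours within 1 kb were thus about as common as elsewhere, while those a few kb away were rarer and long stretches without any peak more common.

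The longest of these stretches was 872 kb, between chr4:47265371-47265563, with 13 and 25 counts in replicates 1 and 2, and chr4:48137923-48138113, with 12 and 30 counts. The next were 635 kb, between chr4:36718761-36718860 (18 and 15 counts) and chr4:37354092-37354420 (97 and 76 counts), and 622 kb, between chr4:48204306-48204549 (79 and 58 counts) and chr4:48826239-48826406 (7 and 8 counts). The first and the third of these gaps were separated by 66.6 kb that held 3 peaks, chr4:48137923-48204549, with 135 and 124 counts together. Whether reads that fit several places in the genome were removed is not given in the sources used here, and closed chromatin and missing reads cannot be told apart from peaks alone.

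Grouped into runs of peaks at most 5 kb apart, the 652 members formed 422 runs. Single peaks made up 285 of them, or 43.7% of the members, against 620 of the 6198 peaks in the first 30 Mb and 25.2% at the chromosome end. Runs of 3 or more peaks held 29.3% of the members, against 77.7% and 50.1%. The longest runs had 7 peaks, against 50 in the first 30 Mb and 17 at the chromosome end. They were chr4:59752496-59770887 (482 and 550 counts in replicates 1 and 2), chr4:63292933-63299262 (92 and 155 counts) and chr4:67038459-67052053 (211 and 138 counts). The last of these had more counts in replicate 1, and the first and second more in replicate 2.

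Over classes of isolation the median level changed less inside the sparse region than on the other chromosomes. Median CPM was 0.888 for the 251 members with a neighbour within 1 kb, 1.20 for the 116 at 1 to 5 kb, 1.12 for the 109 at 5 to 20 kb, and 0.988 both for the 81 at 20 to 50 kb and for the 95 at 50 kb or more (means of the libraries). On the other chromosomes the same classes had 2.05, 2.03, 1.23, 0.930 and 0.796 CPM, the last for 60 peaks. Within the sparse region replicate 2 fell from 1.45 CPM at 1 to 5 kb to 1.02 CPM in both of the last classes. Replicate 1 had 0.958 CPM in each of these classes. At 50 kb or more the sparse region was higher than the other chromosomes in both libraries. At 20 to 50 kb it was higher in replicate 1 (0.958 against 0.792 CPM) but lower in replicate 2 (1.02 against 1.07 CPM). The difference to the other chromosomes lay mainly among peaks with a neighbour within 5 kb. On the rest of chromosome 4 the few peaks at 20 to 50 kb were higher, at 1.43 CPM for 26 in the first 30 Mb and 1.99 CPM for 19 at the chromosome end. At 50 kb or more the chromosome end had 4 peaks, at 0.785 CPM. Across the 652 members the rank correlation of the distance to the nearest peak with CPM was 0.04 in replicate 1 and −0.01 in replicate 2, against −0.08 and −0.06 on the other chromosomes, a description over peaks that share their libraries and by which the sets differed little. In the same sense, CPM followed width less closely here (rho = 0.808) than in the first 30 Mb (0.872).

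**Figure D2:**
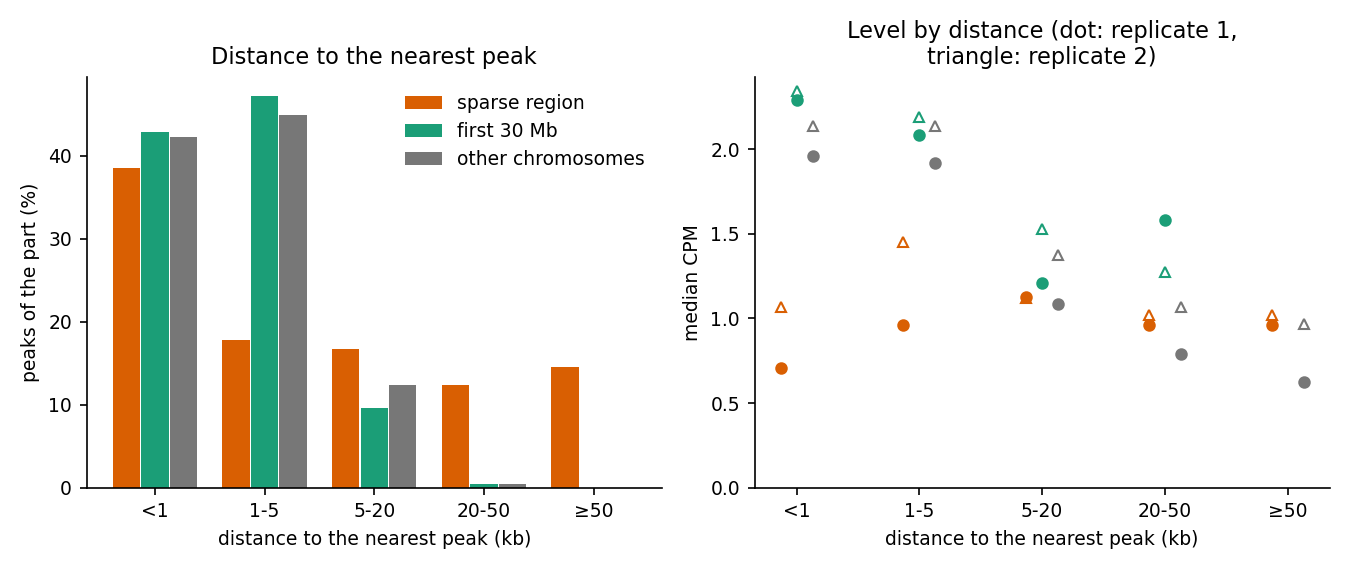
Left, bars give the share of peaks of each set (%) by the distance to the nearest peak (kb). Right, the median CPM of those peaks, with dots for replicate 1 and open triangles for replicate 2. In the sparse region 14.6% of peaks had no other within 50 kb, and median CPM stayed between 0.708 and 1.45 over all classes and both libraries, while on the other chromosomes it fell with distance in both libraries.

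The strongest peaks were few and scattered. Of all peaks on the numbered chromosomes ranked by mean CPM, the top 1% held 0 members and the top 10% held 5 (0.767%), against 9.26% of the peaks of the first 30 Mb and 6.17% of those at the chromosome end. The upper 50% held 164 members (25.2%), against 53.5%. Per kb the picture was the same, with 0 members in the top 1% and 10 members (1.53%) in the top 10%. The region thus held few of the strongest peaks on both scales.

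The strongest member, chr4:46800408-46801383, was 976 bp wide and had 607 counts in replicate 1 and 553 in replicate 2. Its level of 25.3 and 28.1 CPM (26.7 ± 2.01) exceeded that of 98.3% of the peaks on the numbered chromosomes. It is followed after 235 bp by a peak of 266 bp and then, 3 bp further, by chr4:46801888-46803047, which also ranks among the 10 strongest members, with 162 and 192 counts. This cluster of 3 peaks within 46800408 to 46803047 held 33.4 CPM in replicate 1 and 41.2 CPM in replicate 2, which was 3.55 and 3.47% of the counts of the whole region. The megabases on either side of its own held 15 and 3 peaks.

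The second strongest member, chr4:50060025-50062292, was also the widest at 2268 bp, with 319 and 476 counts, or 13.3 and 24.2 CPM. The libraries differed for this peak beyond counting error (exact binomial test of its counts against the library totals, Benjamini-Hochberg adjusted over all peaks, p = 2.91e-13), and so did those of chr4:36113670-36114752 (171 and 274 counts, adjusted p = 3.46e-09). The third, chr4:55576512-55577167, stood alone, with no peak within 129 kb on one side and 423 kb on the other, and had similar levels of 16.5 and 15.0 CPM. The fourth, chr4:59368332-59369460, was one of the 3 widest members at 1129 bp and had 10.4 and 11.9 CPM. Strong peaks therefore occurred both in clusters and in isolation, as members in general did.

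Among the 10 strongest members, 8 were wider than 400 bp, 6 had a neighbour within 5 kb and 3 had none within 20 kb. Of all members, 38.5% had a neighbour within 1 kb and 17.8% at 1 to 5 kb. The nearest peak lay at 20 to 50 kb for 12.4% and at 50 kb or more for 14.6%. Only 2.61% were over 400 to 600 bp wide and 2.30% over 600 bp. The 10 thus differed from all members in width but little in spacing. The exceptions in width were chr4:61790965-61791218, of 254 bp, with 140 and 238 counts and no neighbour within 202 kb, and chr4:60987325-60987551, of 227 bp, with 196 and 172 counts. The other members of this list were chr4:69855655-69856370 (192 counts in each library) and chr4:50139194-50139769 (213 and 162 counts). Of these 10 peaks, 4 differed between the libraries in the binomial test, which called 13.3% of all peaks. All 4 had the higher level in replicate 2, the direction in which 8.21% of all peaks were called. The test detects more at higher counts, and these shares were not matched for count. In turn 6 of the 10 were among the 10 strongest of each library taken alone. All 10 together held 11.7% of the region's summed CPM in replicate 1 and 12% in replicate 2.

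Ranked per kb, most of the first 10 places went to peaks over 200 to 300 bp wide, a class that held 37.7% of all members. The other places went to peaks wider than 300 bp, which were 12% of all members. Most of the 10 strongest by CPM were wider than 400 bp, while the region's typical peak was narrower than the peaks of either list. With 36.0 and 38.6 CPM per kb, chr4:60987325-60987551 came first (37.3 ± 1.82), ahead of chr4:61790965-61791218, whose libraries differed most in this list (23.0 and 47.7 CPM per kb). Then came the strongest member at 27.4 ± 2.06 CPM per kb, chr4:34642461-34642701 at 26.9 ± 8.49 and chr4:50691377-50691630 at 24.5 ± 3.06. Among members with at least 50 counts, 7 of the 10 highest per kb were 200 to 300 bp wide. The narrowest of these 10 had 210 bp, while the median over all members was 200 bp. The first of the 10 exceeded 96.9% of the peaks on the numbered chromosomes on this scale. Across all members CPM per kb rose with width (rank correlation 0.434, a description over peaks).

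Signal was spread over the region rather than held by a few peaks. The strongest 10% of members held 38.4% ± 0.932 of the summed CPM, against 43.2% ± 1.64 in the first 30 Mb, 53.2% ± 2.85 at the chromosome end and 47.2% ± 2.02 on the other chromosomes. In blocks of 5 Mb, the number of peaks ran from 48 (40 to 45 Mb) to 124 (65 to 70 Mb), and the share of the summed CPM from 5.77 to 20.3% in replicate 1 and from 5.97 to 19.1% in replicate 2. Median width stayed between 177 and 213 bp in every block, and median CPM between 0.625 and 1.08 in replicate 1 and between 0.865 and 1.35 in replicate 2. All of these medians of width and CPM were below those of the first 30 Mb, so the low values did not rest on one stretch.

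Single megabases varied more. Median width lay below that of the first 30 Mb in all 40 of them, and median CPM in 39 of 40 in replicate 1 and in 40 of 40 in replicate 2. Summed CPM ran from 3.75 to 67.1 per Mb in replicate 1 and from 3.82 to 88.3 in replicate 2, with 3 to 40 peaks per Mb. Across the 40 megabases the number of peaks had a rank correlation of 0.868 (replicate 1) and 0.891 (replicate 2) with summed CPM, but of −0.07 and −0.06 with median CPM, a description of neighbouring windows of the same libraries. Megabases with more peaks had more counts in all, but not stronger peaks.

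**Figure D3:**
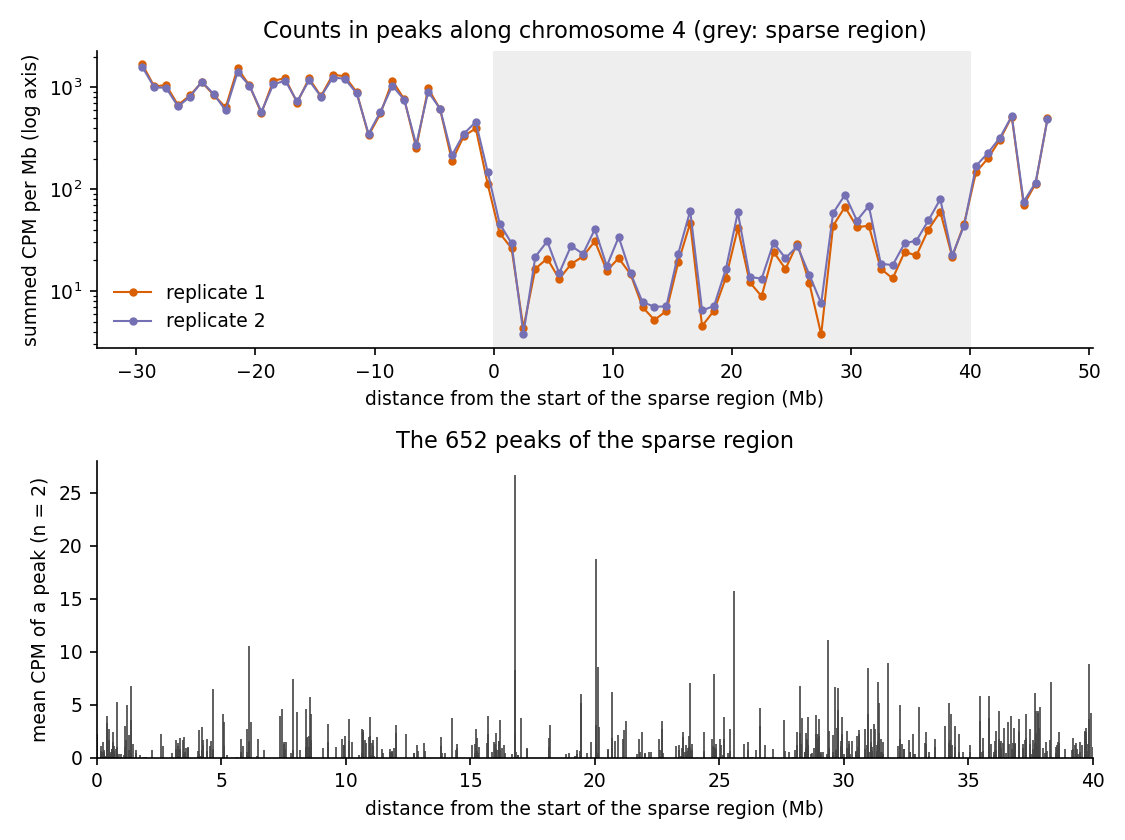
Above, summed CPM of the peaks of each Mb of chromosome 4 on a log axis, against the distance from the start of the sparse region (Mb), with a line per library and the sparse region in grey. Below, the mean CPM (n = 2) of each of the 652 peaks against the same distance. No megabase of the grey region exceeded 88.3 CPM in either library, and the strongest peak reached 26.7 CPM.

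At both borders of this region, which was chosen for its few peaks, the number of peaks per Mb and their summed CPM changed within neighbouring megabases. Before the first border the number was uneven. The megabases from 23 and 24 Mb had 93 and 231 peaks, and the next ones had 165 and 70. Those from 27 and 28 Mb had 130 and 134. The last megabase before the region had 57 peaks with a summed 112 and 148 CPM in replicates 1 and 2, and the first within it had 34 peaks with 37.1 and 46.0 CPM. At the far border the last megabase within had 24 peaks with 45.8 and 43.9 CPM, and the first beyond had 64 peaks with 147 and 169 CPM. The last peak outside the first border, chr4:29863757-29863856, had 3 and 1 counts, and the first inside, chr4:30012460-30012758, had 52 and 44. At the second border, chr4:69998348-69998560 inside had 28 and 16 counts and chr4:70019458-70019575 outside had 7 in each library. At both borders the single peak inside was thus the stronger of its pair.

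The libraries agreed less well in the sparse region than elsewhere. Across its peaks the correlation of log2(CPM + 0.1) between the replicates was r = 0.835, against 0.933 in the first 30 Mb, 0.926 at the chromosome end and 0.936 on the other chromosomes, given as a description over peaks of lower count. The summed count was 22547 in replicate 1 and 23300 in replicate 2, although replicate 1 had the larger total, which amounts to 1.26-fold more CPM in replicate 2. That ratio was 0.971 in the first 30 Mb, 1.04 at the chromosome end and 0.995 on the other chromosomes. The sparse region was thus relatively better represented in the library with the smaller total count in peaks.

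This shift was found along the whole region and, to a smaller size, beside it. Of the 652 members 455 (69.8%) were higher in replicate 2, against 52.6% of the peaks in the first 30 Mb, 58.5% at the chromosome end and 57.3% on the other chromosomes. In the same order, log2(replicate 1 / replicate 2) had medians of −0.34, −0.03, −0.10 and −0.10. Summed by megabase, 37 of 40 (92.5%) were higher in replicate 2, against 12 of 30 in the first 30 Mb, 6 of 6 complete megabases at the chromosome end and 732 of 1252 (58.5%) on the other chromosomes. The 5 megabases just before the region were also higher in replicate 2, with log2 ratios from −0.40 to −0.01. The complete ones at the chromosome end ran from −0.20 to −0.02, while the range within the region was −1.01 to 0.18. The last, incomplete megabase of the chromosome, with 100 peaks, was higher in replicate 1 (log2 ratio 0.03). The lean towards replicate 2 was therefore not confined to the sparse region. All 8 blocks of 5 Mb had a negative log2 ratio, from −0.41 to −0.25. Scaling by TMM in place of the total moved the median log2 ratio of all peaks from −0.10 to −0.01, and 34 of 40 megabases were then higher in replicate 2, against 4 of 30 in the first 30 Mb, 3 of 6 at the chromosome end and 289 of 1252 (23.1%) elsewhere.

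**Figure D4:**
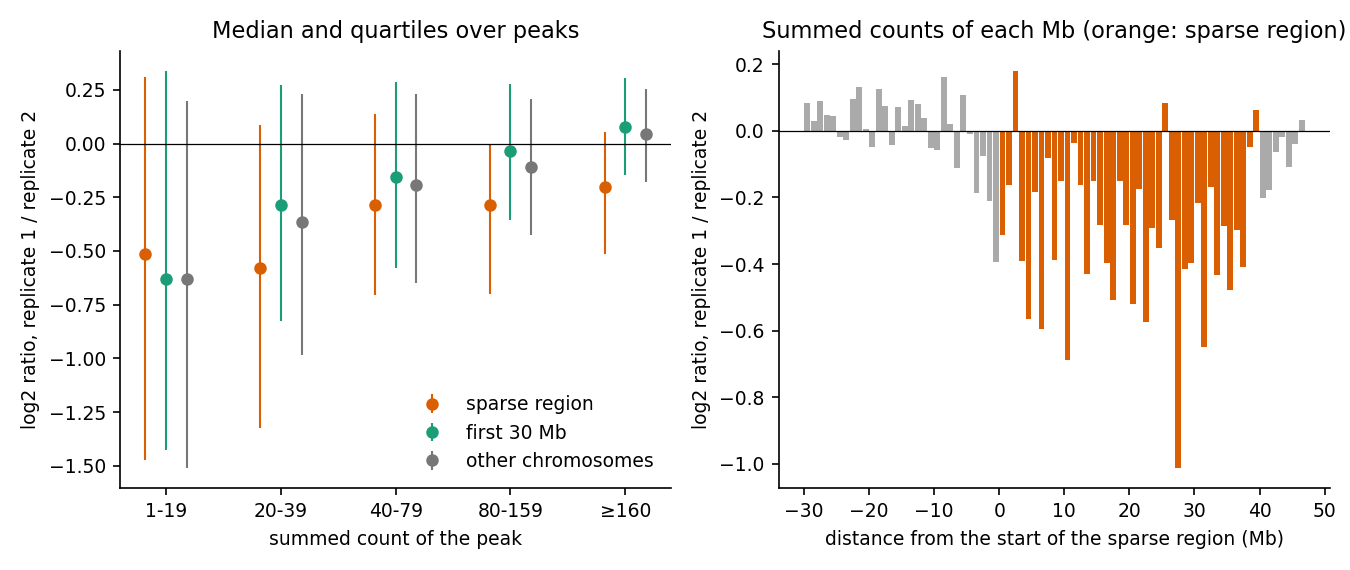
Left, the log2 ratio of CPM in replicate 1 to replicate 2 by the summed count of the peak, with dots for the median and bars for the quartiles over peaks. Right, the same ratio for the summed counts of each Mb of chromosome 4, with the sparse region in orange. In the sparse region 37 of 40 megabases lay below 0, as did the 5 before it and the 6 complete ones after it, but not the last, incomplete one. The medians of the sparse region's peaks with 20 or more counts lay below those of the other sets plotted.

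Weak peaks leaned towards replicate 2 in all sets, though little at the chromosome end. Peaks of 1 to 19 counts had a median log2 ratio of −0.51 in the sparse region, −0.63 in both the first 30 Mb and the other chromosomes, and −0.08 at the chromosome end. They made up 16.9% of members, against 10.7% in the first 30 Mb, 12.9% on the other chromosomes and 20.6% at the chromosome end. In the sparse region 62.7% of these weak peaks had a ratio below 0, against 69.8% of all members. For peaks with at least 160 counts the median log2 ratio was −0.20 in the sparse region and −0.04 at the chromosome end. It was 0.08 in the first 30 Mb and 0.05 on the other chromosomes. Compared within classes of count and width, with the mix of the sparse region, the difference to the first 30 Mb went from −0.31 to −0.19, that to the chromosome end from −0.24 to −0.20 and that to the other chromosomes from −0.24 to −0.14. Within classes of count alone, these differences were −0.17, −0.24 and −0.12 in the same order. The class of at least 160 counts has no upper limit, so the count was not held equal within it. The part that count and width have in the shift was not tested.

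An exact two-sided binomial test of each peak, with Benjamini-Hochberg adjustment over all 238310 peaks with any count, called 97 of the 649 members tested at an adjusted p under 0.05 (14.9%), against 13.3% of all peaks. The test detects more at higher counts, and the median summed count was 42.5 per member against 82 on the other chromosomes. Not matched for count, the share called was near the background, but its direction was not balanced. Only 5 members (0.770%) were higher in replicate 1, against 5.09% of all peaks, while 92 (14.2%) were higher in replicate 2, against 8.21% of all peaks. Of the called members 94.8% were higher in replicate 2, against 61.7% of all called peaks and 67.2% of those called at the chromosome end. Under TMM scaling 84 members were called (12.9%), against 14.1% of all peaks, so the share was then slightly under the background. Of these, 10 (1.54% of members) were higher in replicate 1, against 7.97% of all peaks. The other 74 (11.4%) were higher in replicate 2, against 6.17% of all peaks. Of the called members 88.1% were thus higher in replicate 2 under TMM, against 43.6% of all called peaks and 54.0% at the chromosome end. The test compares the reads of these libraries and not conditions, and the part that depth has in the shift was not tested.

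Among members with at least 50 counts the ratios most in favour of replicate 1 were those of chr4:53662956-53663181 (42 and 13 counts, log2 ratio 1.37), chr4:60945272-60945504 (40 and 15 counts, 1.10) and chr4:67051779-67052053 (74 and 30 counts, 1.0). The second of these was not called in the exact binomial test (adjusted p = 0.0674). The ratios most in favour of replicate 2 were larger. They were those of chr4:58519372-58519749 (17 and 56 counts, −1.98), chr4:50700007-50700518 (20 and 59 counts, −1.83) and chr4:63298482-63298762 (14 and 39 counts, −1.73), all 3 called.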

How the data were processed

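The 2 ATAC-seq libraries of sorted RPE cells (23 hpf) form 1 group. According to the study, reads were aligned to danRer10 by Bowtie2, duplicates removed by rmdup, read starts shifted to the transposase position, and pairs of short insert kept as nucleosome-free. The submitters' processing notes also name MACS2. The deposited values are raw counts per peak, not scaled by the authors, over 1 common list of peaks, which the study describes as detected in neural retina and RPE. How that list was pooled, whether multiply mapping reads were filtered, and whether reads or cut sites were counted is not given in the sources used here. A peak that rests on neural retina reads may hold few RPE counts. Intervals and tests cover counting error only.

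CPM was computed from the total count in peaks. Ratios of single peaks used 0.5 added counts, and levels were split by width class on log2(CPM + 0.1). Exact binomial tests used the total counts, with Benjamini-Hochberg adjustment over all peaks. The test was tried on simulated counts with counting error only, and the split on simulated levels with the same difference in every width class. The data differ from both settings, so these trials check the code and not its use here. Comparison of count and width classes used cells with at least 5 peaks in the comparison set. Alternatives were TMM (edgeR 4.0.16) and DESeq2 1.42.0 scaling in R 4.3.3, a minimum of 10 counts, omission of 100 bp peaks, the region 35 to 65 Mb, a pseudocount of 1 CPM, the other chromosomes as reference, and each replicate left out. Other steps used scipy 1.17.1, pandas 2.3.3 and numpy 2.4.6 under Python 3.11.15, with a seed of 11, and plots used matplotlib 3.10.9.

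Named peaks were the 10 highest by mean CPM, the 5 highest by CPM per kb and the 3 largest and 3 smallest replicate ratios among peaks with at least 50 counts, the 3 widest, those beside the borders and the 3 longest gaps, and the 3 longest runs. Members, classes and rules were chosen with earlier results of these data known. Coordinates count the first base as 1. Gene annotation and sequence were not used.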

Additional observations from a re-analysis of the deposited data

How the results depend on the processing

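A minimum of 10 counts in each library raised the median level of the sparse region from 1.02 to 1.48 CPM, reduced its log2 difference to the first 30 Mb from −1.04 to −0.86, and widened the median distance between peaks from 19 to 31.9 kb. It also left 63 in place of 97 peaks that differ between the libraries. These 63 were 13.8% of the 458 members kept, against 13.3% of all peaks kept, so the share stayed near the background. Without peaks of 100 bp the median level was 1.18 CPM, and between 35 and 65 Mb the median distance was 19.3 kb. With one replicate left out, the median level ranged from 0.917 to 1.12 CPM, and the log2 difference to the first 30 Mb ranged from −1.16 to −0.93 in median CPM, from −0.56 to −0.32 per kb and from −0.23 to −0.04 within width classes. These are the values of the other library alone, and scaling a library cannot alter a difference within it (beyond the pseudocount), so the 14 values of these kinds say nothing of stability. Of the 26 that could move, the 6 first given moved, and 20 kept their direction and moved by less than the spread between the libraries or, for counts, by less than 1.5 times. The scaling of the megabase ratios was chosen after seeing the data, and 34 megabases were higher in replicate 2 under TMM and under DESeq2 factors, against 37. The test between libraries needs both replicates and spacing is that of the common list, so neither has a value with a replicate left out. No paired analysis was possible because the data hold only 1 group. A median of 42.5 counts per peak over both libraries limits what single peaks can show.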

Other observations

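One of the longest runs, chr4:59752496-59770887, and a run of 6 peaks at chr4:38577558-38595949 had the same length of 18392 bp. This pair was chosen after its values were seen. In the first run, peaks began 0, 5123, 9569, 11009, 15136, 16638 and 18131 bp from its start, and in the second 0, 5204, 8464, 11161, 15317 and 18292 bp from its start. The strongest peak was in both cases the fifth, with 135 and 149 counts in replicates 1 and 2 in the first run and 79 and 98 counts in the second. The second run had 172 and 248 counts in all, against 482 and 550. No sequence was used, so whether these stretches are copies of each other was not tested.

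Among the 652 peaks of the sparse region 3 had 0 counts in both libraries, which allows up to 3 counts in each, against 0 of 6198 peaks in the first 30 Mb and 55 of 226382 on the other chromosomes. Whether these entries of the common list rest on other libraries was not tested. Only 2 of the 1252 megabases on the other chromosomes had as few as 40 peaks or fewer, with 100.4 and 189.2 CPM in replicate 1, both above the highest megabase of the sparse region. That megabase, from 59 Mb, had 40 peaks with 67.1 and 88.3 CPM in replicates 1 and 2. At the chromosome end the megabase from 74 Mb also had 40 peaks, at a similar 70.1 and 75.5 CPM.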
